A study of Homo sapiens with 4 samples.

Results

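Cells copy, add and remove methyl groups on the cytosines of their DNA with a small set of proteins, and the transcripts of 9 of them were followed here in MHCC-97H cells, a human hepatocellular carcinoma line. The 9 genes were matched by symbol among 58735 annotated genes: the methyltransferases DNMT1, DNMT3A and DNMT3B, the dioxygenases TET1, TET2 and TET3, the guiding proteins UHRF1 and UHRF2, and the reader MBD2. The rule that defines the set uses gene names alone, but the set was chosen with earlier results of these data known. Wild-type MHCC-97H cells were kept for 24 h with PBS or with 2 µg of migrasomes (Migs), which are vesicles that migrating cells leave behind on their retraction fibres. The Migs came from MHCC-97H cells grown in normoxia (Normo-Migs), from the same line grown in hypoxia (Hypo-Migs), or from hypoxic MHCC-97H cells in which CD147, a membrane glycoprotein also called basigin, had been knocked out (CD147KO-Migs). The knockout applied to the cells that donated the Migs, while the recipient cells are described as MHCC-97H cells without it. Each of the 4 conditions was sequenced as 1 RNA library, so no difference below has a replicate check.

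DNMT1 is the maintenance methyltransferase, which restores methylation on the new strand after DNA replication. UHRF1 recognises half-methylated sites and recruits DNMT1 to them, and UHRF2 is its paralogue. DNMT3A and DNMT3B add methyl groups to unmethylated sites, DNMT3B being best known from early development. TET1, TET2 and TET3 oxidise methylcytosine, the first step of active demethylation. MBD2 binds methylated CpG sites and brings the NuRD repressor complex to them. Loss of methylation across the genome with gain at some promoters is a well-known feature of liver cancer, and DNA methylation itself was not measured in these libraries.

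Only DNMT3B and TET1 passed the test of the adjusted p-value and fold change against PBS, both higher in each Mig library, and their RefSeq start regions are shown for that reason. The 250 bases upstream of the annotated start are given on the coding strand, 5′ to 3′ (RefSeq, GRCh38.p14). Every CpG, the pair of bases these enzymes act on, is in capitals. The TET1 window lay at chr10:68560087-68560336, plus strand, and the start it belongs to lay 319 bases before the first base of TET1 in GENCODE. The DNMT3B window lay at chr20:32779602-32779851, plus strand, and the start it belongs to was 17467 bases downstream of the principal GENCODE start, so it was an internal position of the gene and not its main promoter.
TET1: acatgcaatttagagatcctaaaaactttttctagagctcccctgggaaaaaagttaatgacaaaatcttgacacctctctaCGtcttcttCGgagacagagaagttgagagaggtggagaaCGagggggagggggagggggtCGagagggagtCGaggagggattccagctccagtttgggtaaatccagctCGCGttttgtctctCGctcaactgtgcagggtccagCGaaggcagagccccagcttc
DNMT3B: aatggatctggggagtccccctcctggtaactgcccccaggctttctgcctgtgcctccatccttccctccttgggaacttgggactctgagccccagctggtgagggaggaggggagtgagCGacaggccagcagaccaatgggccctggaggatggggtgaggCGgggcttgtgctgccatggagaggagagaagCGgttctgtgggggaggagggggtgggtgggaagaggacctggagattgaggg
The TET1 window held 9 CpGs and the DNMT3B window held 3, against a median of 11 over 35116 RefSeq windows of the same length. The window nearest the principal start of the other 7 genes held between 12 CpGs (DNMT3A) and 41 (UHRF1), and 98.3% of all windows held fewer than that of UHRF1. These counts describe the letters of the reference sequence and carry no information on methylation in the cells.

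Between 33882496 (PBS) and 40285223 (Hypo-Migs) reads per library were assigned to genes. The PBS library stood apart from the others: 251 genes had at most 3 reads in it and at least 100 in each Mig library, while no gene was missing in this way from any single Mig library. Mitochondrial genes took 2.69% of reads in the PBS library and 5.00% to 5.16% in the Mig libraries. Hepatocyte-defining genes differed among themselves: ALB, AFP, APOB and TTR had 0 reads in all 4 libraries. HNF4A of the same list had 134, 146, 246 and 141 reads in PBS, Normo-Migs, Hypo-Migs and CD147KO-Migs. FGB had 0, 561, 827 and 832 in that order. The epithelial keratins KRT8 and KRT18 had at least 36742 reads in each library. Every comparison against PBS rests on that 1 library and cannot be repeated without it.

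**Figure D1:**
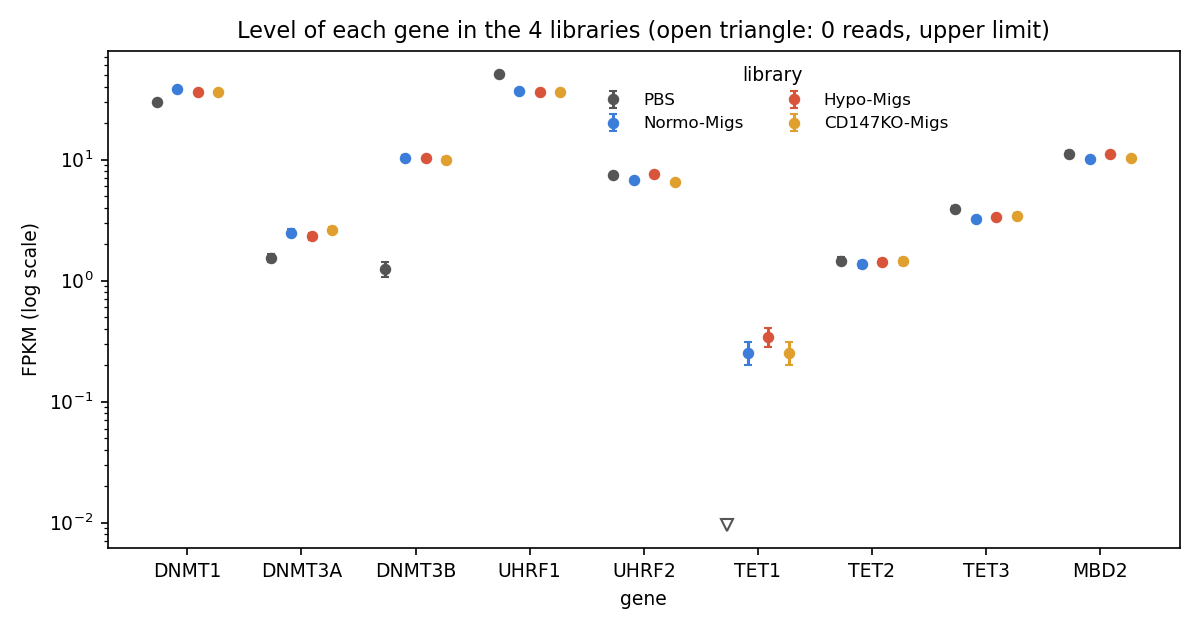
Level of the 9 genes in FPKM (fragments per kilobase of transcript per 1e+06 mapped, log axis) in each library, with 95% counting intervals as bars; most bars are smaller than the points. The DNMT3B point of PBS (1.24) lies far below those of the 3 Mig libraries (9.98 to 10.3), and the open triangle for TET1 in PBS marks the level of 3 reads, the limit set for 0 reads (0.00953).

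In FPKM, a level scaled for depth and for the annotated length of each gene, the 9 genes covered a wide range. That length (12020 bases for DNMT3A, 4630 for DNMT3B) need not be that of the transcripts present. The order of the genes and the ratios between them depend on it, and the counting intervals leave it out. UHRF1 and DNMT1 were the most abundant in all 4 libraries, at 50.5 and 29.6 FPKM in PBS, and DNMT1 lay above 89.4% of 14419 protein-coding genes there. In PBS the order continued with MBD2 (11.2), UHRF2 (7.40) and TET3 (3.90), each separated from its neighbour by more than the counting error. DNMT3A (1.54), TET2 (1.46) and DNMT3B (1.24) followed with intervals that overlapped from one to the next, and TET1 had no read. In each Mig library UHRF1 and DNMT1 overlapped at the top, and DNMT3B and MBD2 overlapped at ranks 3 and 4. UHRF2, TET3, DNMT3A, TET2 and TET1 then followed in this order, each apart from the next. DNMT3B thus ranked 8 of 9 in PBS and 3 or 4 in the Mig libraries, while no other gene moved by more than 1 rank.

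Against PBS, 2 of the 9 genes were called in each Mig library, DNMT3B and TET1, both higher. A gene was called where its adjusted p was 0.05 or below and its log2 fold change was 1 or more in size. Over all 19895 genes tested, 27.2% were called with Normo-Migs (16.5% higher, 10.7% lower), 28.3% with Hypo-Migs (17.5% higher, 10.9% lower) and 27.5% with CD147KO-Migs (16.6% higher, 10.9% lower). The members' share was therefore near the background, and no member was called lower. Both genes were higher in all 3 Mig libraries, as were 12.6% of all genes, while 6.66% were lower in all 3. These 3 comparisons share the PBS library and are not independent of each other. The test compared reads of 2 libraries, and thus those libraries and not the conditions. The median log2 fold change of the 9 genes was -0.09, 0.04 and -0.01 with Normo-Migs, Hypo-Migs and CD147KO-Migs, beside 0.03, 0.04 and 0.03 over all genes tested.

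Markers of other cell types also differed between PBS and the Mig libraries. Of 5 fibroblast genes, 4 were tested and all 4 were called higher in each Mig library, namely COL1A1, DCN, LUM and PDGFRB. Over all genes tested, 16.5%, 17.5% and 16.6% were called higher with Normo-Migs, Hypo-Migs and CD147KO-Migs. The summed level of the fibroblast list was 22.9 reads per 1e+06 in PBS and 157 to 167 in the Mig libraries. COL1A2, another defining gene of the list, had at most 2 reads in any library. FGB, a fibrinogen chain made by hepatocytes, had 0 reads in PBS and 561 to 832 in the Mig libraries, whereas SERPINA1, of the same list, was called lower in each (25 reads in PBS, 2 to 10 with Migs). The leukocyte list summed to between 0.944 and 2.63 reads per 1e+06, with CD3E at 0 throughout, and CD14 was called higher in each Mig library (14 reads in PBS, 47 to 86 with Migs), while CD79A was called lower with Hypo-Migs (10 reads in PBS, 1 with Hypo-Migs). The endothelial list summed to between 1.12 and 4.07, and its genes went both ways: PECAM1 was called higher in each Mig library (16 reads in PBS, 118 to 146 with Migs), TEK was called lower in each (11 in PBS, 0 to 3 with Migs), and VWF had 7 reads in PBS and 0 to 2 with Migs. These levels moved with the same contrast as DNMT3B and TET1, and their part in those differences was not tested. In bulk RNA, fewer cells that express a gene and less of its RNA per cell cannot be told apart.

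DNMT3B (ENSG00000088305, chr20:32762385-32809356, plus strand, hg38) had 198 reads in PBS, and 1634, 1917 and 1633 with Normo-Migs, Hypo-Migs and CD147KO-Migs. The PBS library was low and the 3 Mig libraries were nearly level with each other. The fold over PBS was 8.29, 8.26 and 8.06 with Normo-Migs, Hypo-Migs and CD147KO-Migs. On the log2 scale these were 3.05 (95% counting interval 2.85 to 3.28), 3.05 (2.85 to 3.28) and 3.01 (2.81 to 3.24). By size, the change with Hypo-Migs ranked 1428 among 19895 genes. DNMT3A (ENSG00000119772, chr2:25227855-25342590, minus strand), its relative in de novo methylation, had 639 reads in PBS and 1028, 1128 and 1111 with Normo-Migs, Hypo-Migs and CD147KO-Migs. Its log2 fold changes over PBS were 0.70, 0.60 and 0.78, beyond counting error in each Mig library and under the fold threshold. Gene counts do not separate transcript isoforms, so which DNMT3B or DNMT3A transcripts made up these reads was not measured.

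DNMT1 (ENSG00000130816, chr19:10133345-10231286, minus strand) had 10036 reads in PBS, and 12765, 14306 and 12510 with Normo-Migs, Hypo-Migs and CD147KO-Migs. Its log2 fold changes over PBS were 0.37, 0.29 and 0.30, small differences that deep coverage placed beyond counting error. The receptor gene S1PR2 overlaps DNMT1 on the same strand and had 84 reads in PBS and 206 to 274 in the Mig libraries, few beside those of DNMT1. Among 12186 protein-coding genes that averaged 50 reads or more, the 3 whose log2 profile over the 4 libraries lay closest to that of DNMT1 were the RNA helicase gene DDX1 (distance 0.00688), NBEAL1 (0.0159) and the adhesion gene NECTIN1 (0.016). With 4 libraries, of which 3 are alike, such closeness describes the profile and no more.

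The 3 methyltransferases together summed to 32.4 FPKM in PBS and to 48.6 to 50.7 in the Mig libraries. DNMT3A and DNMT3B together stood to DNMT1 as 0.0936 to 1 in PBS and as 0.336, 0.348 and 0.349 to 1 with Normo-Migs, Hypo-Migs and CD147KO-Migs. DNMT3B stood to DNMT3A as 0.804 to 1 in PBS and as 4.13, 4.41 and 3.82 to 1 in the Mig libraries. The de novo enzymes thus made up a larger part of the methyltransferase transcripts in every Mig library than in PBS, most of it DNMT3B.

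**Figure D2:**
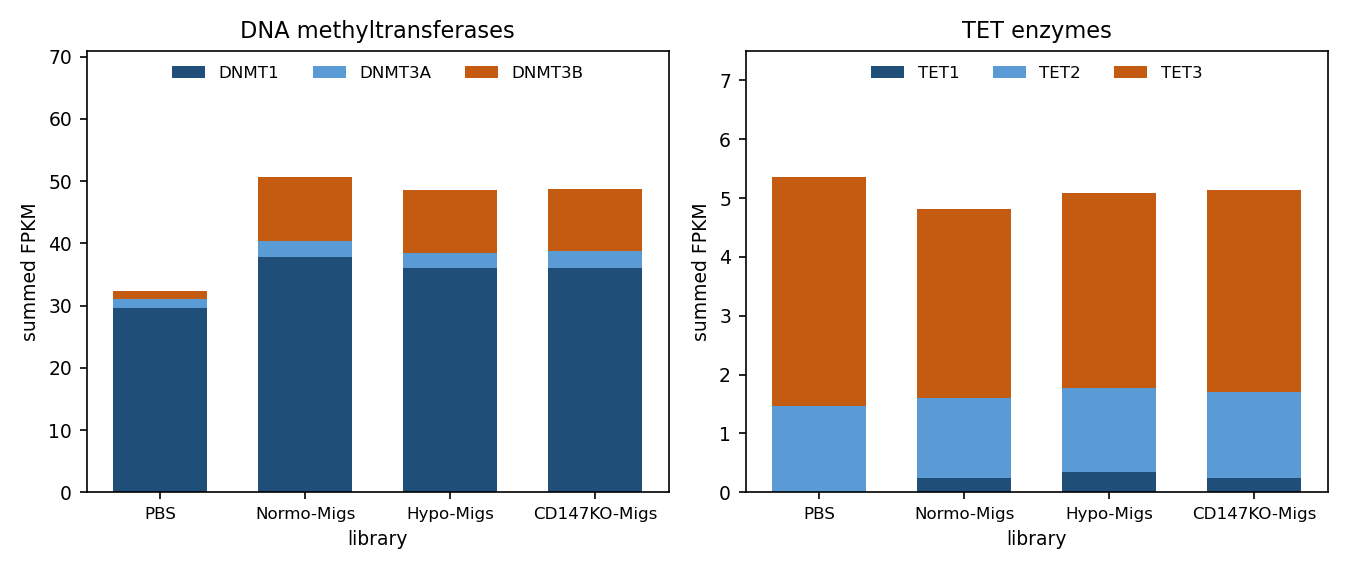
Stacked FPKM of the 3 methyltransferases (left) and of the 3 TET genes (right) in each library, 1 library per bar and no error shown. The DNMT3B segment is thin in PBS and thick in the 3 Mig libraries, while the TET total stays between 4.81 and 5.37 FPKM.

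The guiding protein genes were not called in any comparison. UHRF1 (ENSG00000276043, chr19:4903080-4962154, plus strand) had 8983 reads in PBS, and 6548, 7560 and 6524 with Normo-Migs, Hypo-Migs and CD147KO-Migs. After scaling, the 3 Mig libraries lay below PBS by similar amounts, with log2 fold changes of -0.44, -0.47 and -0.48, beyond counting error and under the fold threshold. In FPKM, UHRF1 stood to DNMT1 as 1.70 to 1 in PBS and as 0.977, 1.01 and 0.993 to 1 in the Mig libraries. In reads, which are not scaled for length, PBS held more of DNMT1 (10036) than of UHRF1 (8983). The value of UHRF1 is uncertain because a processed pseudogene, AC112777.1 on chromosome 12, carried 10.1 to 11.2 reads for every 100 of UHRF1, and reads could have been divided between the copies. With the reads of both summed, the log2 fold changes over PBS were -0.43, -0.45 and -0.48. The genes closest to the profile of UHRF1 were CEMIP2, which encodes a cell-surface hyaluronidase (distance 0.0119), the splicing factor gene HNRNPA2B1 (0.014) and the co-chaperone gene ST13 (0.0148).

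UHRF2 (ENSG00000147854, chr9:6413151-6507054, plus strand) had 2540 reads in PBS, and 2296, 3040 and 2281 with Normo-Migs, Hypo-Migs and CD147KO-Migs. The counting intervals of PBS and Hypo-Migs overlapped in FPKM (7.40 and 7.57), and Normo-Migs and CD147KO-Migs were slightly lower (6.74 and 6.50). UHRF1 exceeded UHRF2 by 6.82 to 1 in PBS and by 4.79 to 5.51 to 1 in the Mig libraries.

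TET1 (ENSG00000138336, chr10:68560656-68694482, plus strand) had 0 reads in PBS, and 80, 128 and 82 with Normo-Migs, Hypo-Migs and CD147KO-Migs. Set against a floor of 3 reads in PBS, TET1 was 27.0-fold higher with Normo-Migs, 36.7-fold higher with Hypo-Migs and 26.9-fold higher with CD147KO-Migs. With the counting error of both libraries included, the lower ends of the 95% intervals were 4.42, 4.88 and 4.42 on the log2 scale, below these folds. Even so its level stayed low, at 0.251, 0.340 and 0.25 FPKM, the lowest of the 9 genes in each library. A processed pseudogene of COX20 inside TET1 on the same strand had 166, 150, 203 and 139 reads in PBS, Normo-Migs, Hypo-Migs and CD147KO-Migs. Such reads could come from COX20 itself, so they do not show that the TET1 locus was transcribed in PBS.

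TET3 (ENSG00000187605, chr2:73986404-74108176, plus strand) had 1657 reads in PBS, and 1350, 1648 and 1491 with Normo-Migs, Hypo-Migs and CD147KO-Migs. Its log2 fold changes over PBS were -0.28, -0.23 and -0.17, small and beyond counting error. TET2 (ENSG00000168769, chr4:105145875-105279816, plus strand) had 833, 771, 953 and 842 reads in the same order, and its log2 fold changes of -0.09, -0.02 and -0.01 lay within counting error. TET3 supplied 72.8% of the summed TET FPKM in PBS and 65.2% to 67.0% in the Mig libraries, and TET1 supplied at most 6.69%. The 3 methyltransferases exceeded the 3 TET genes by 6.04 to 1 in PBS and by 10.5, 9.56 and 9.49 to 1 with Normo-Migs, Hypo-Migs and CD147KO-Migs, again mainly through DNMT1 and DNMT3B.

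MBD2 (ENSG00000134046, chr18:54151601-54224788, minus strand) had 2250 reads in PBS, and 2009, 2611 and 2095 with Normo-Migs, Hypo-Migs and CD147KO-Migs. Its log2 fold changes over PBS were -0.14, -0.00 and -0.12, the first and last of which passed the adjusted p alone.

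By the adjusted p alone, which with 1 library per condition asks only whether 2 libraries differ by more than counting error, 8 of the 9 genes differed between Normo-Migs and PBS, 6 between Hypo-Migs and PBS, and 8 between CD147KO-Migs and PBS. The corresponding shares of all genes were 69.6%, 71.3% and 69.9%, so at this depth most genes pass this rule.

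**Figure D3:**
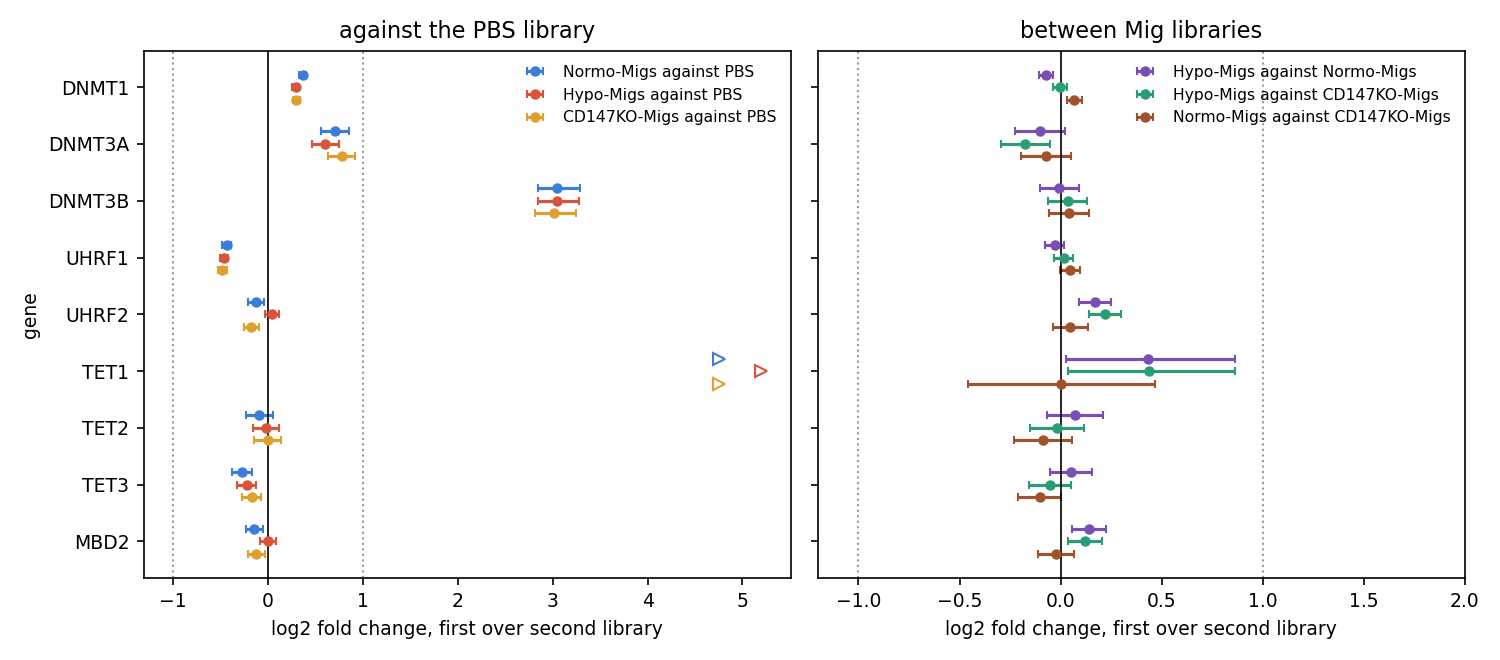
Log2 fold change of each gene against PBS (left) and between Mig libraries (right, wider scale), with 95% counting intervals. Dotted lines mark the fold threshold and open triangles mark lower bounds for TET1, which had 0 reads in PBS. DNMT3B and TET1 lie beyond the threshold on the left, and no point reaches it on the right.

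Comparing Hypo-Migs with Normo-Migs asks whether the oxygen supply of the donor cells mattered, and comparing Hypo-Migs with CD147KO-Migs asks the same of CD147 in hypoxic donors. In neither comparison was any of the 9 genes called, nor between Normo-Migs and CD147KO-Migs. The donors of Normo-Migs and CD147KO-Migs differed in both oxygen supply and CD147, which cannot be told apart in that comparison. Over all genes tested, 4.87% were called between Hypo-Migs and Normo-Migs, 5.05% between Hypo-Migs and CD147KO-Migs and 4.90% between Normo-Migs and CD147KO-Migs. By the adjusted p alone 3, 3 and 1 of the 9 genes differed in these comparisons, against 24.5%, 25.2% and 24.6% of all genes.

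The differences beyond counting error were small. UHRF2 was higher with Hypo-Migs than with Normo-Migs by 0.17 on the log2 scale (interval 0.09 to 0.25) and than with CD147KO-Migs by 0.22 (0.14 to 0.30). MBD2 was higher with Hypo-Migs by 0.14 (0.06 to 0.23) and by 0.12 (0.04 to 0.20) in the same comparisons. DNMT3A was lower with Hypo-Migs than with CD147KO-Migs (log2 fold change -0.17, interval -0.30 to -0.05), and DNMT1 was lower with Hypo-Migs than with Normo-Migs (-0.07) and higher with Normo-Migs than with CD147KO-Migs (0.07). TET1, with the fewest reads, had a log2 fold change of 0.43 between Hypo-Migs and Normo-Migs (interval 0.03 to 0.86), which did not pass correction (edgeR binomial test, adjusted p = 0.0994). The same held against CD147KO-Migs (adjusted p = 0.0998). DNMT3B, the gene with the clearest difference from PBS, had a log2 fold change of -0.01 between Hypo-Migs and Normo-Migs (interval -0.10 to 0.09) and of 0.03 between Hypo-Migs and CD147KO-Migs (-0.06 to 0.13). For DNMT3B these intervals leave room only for small differences between these libraries.

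Against PBS, 27.2%, 28.3% and 27.5% of all genes tested were called with Normo-Migs, Hypo-Migs and CD147KO-Migs. Of 13 genes listed as partners of the methyltransferases and UHRF proteins, 11 were tested, and none was called with Normo-Migs or Hypo-Migs. Their median log2 fold change was -0.31 with both and -0.39 with CD147KO-Migs, beside 0.03 to 0.04 over all genes. With CD147KO-Migs 1 was called lower, CDCA7L, a homologue of the remodelling factor CDCA7, at 2346 reads in PBS and 1124 with CD147KO-Migs (log2 fold change -1.08). It had 1163 and 1619 reads with Normo-Migs and Hypo-Migs, and its log2 fold changes there, -0.99 and -0.75, were short of the threshold. HELLS, the remodelling helicase needed for normal DNA methylation, had 1874 reads in PBS and 2672 to 3288 in the Mig libraries (log2 fold changes 0.53 to 0.64, not called). DNMT3L, the catalytically inactive cofactor of the de novo enzymes, had at most 9 reads in any library.

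Among 9 other readers of methylated DNA, 1 was called, the zinc finger gene ZBTB38, lower in each Mig library, as were 6.66% of all genes tested. It had 9764 reads in PBS, and 3724, 4438 and 4019 with Normo-Migs, Hypo-Migs and CD147KO-Migs, and its log2 fold changes were -1.37, -1.35 and -1.30. None of the 11 NuRD subunits listed, the complex that MBD2 recruits, was called in any comparison. Their log2 fold changes with Hypo-Migs ran from -0.44 to 0.67. Of all genes tested, 27.2% to 28.3% were called against PBS and 4.87% to 5.05% between Mig libraries.

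The list of TET partners, base excision and the metabolites TET enzymes depend on held 13 genes, and none was called lower. Higher calls numbered 3 with Normo-Migs and 4 each with Hypo-Migs and CD147KO-Migs. Over all genes tested, 16.5%, 17.5% and 16.6% were called higher in these comparisons, and 10.7%, 10.9% and 10.9% lower. The list's median log2 fold change with Hypo-Migs was 0.40, beside 0.04 over all genes. OGT, the glycosyltransferase that binds TET proteins, had 5823 reads in PBS, and 13403, 17468 and 14670 with Normo-Migs, Hypo-Migs and CD147KO-Migs. IDH1, which makes the TET cosubstrate 2-oxoglutarate, had 4085, 7928, 10003 and 8890 reads in that order and was called with Hypo-Migs and CD147KO-Migs (log2 fold changes 1.07 and 1.10) but missed the fold threshold with Normo-Migs (0.97). CXXC4, named after its values were seen, was also called, at 0 reads in PBS and 23 to 46 in the Mig libraries. The excision genes TDG, SMUG1 and APEX1 were not called, with log2 fold changes of 0.32 to 0.47 over the 3 Mig libraries.

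Among all genes tested, 17.5% were called higher with Hypo-Migs, and 16.6% higher and 10.9% lower with CD147KO-Migs. Between Hypo-Migs and CD147KO-Migs, 5.05% were called. Of 10 genes of the methyl donor cycle, 9 were tested. With Hypo-Migs 1 was called higher, MAT1A, at 2 reads in PBS and 18 with Hypo-Migs, and it was also the only gene of the 7 lists called between Mig libraries (2 reads with CD147KO-Migs). With CD147KO-Migs 1 was called higher, NNMT, which consumes the methyl donor (log2 fold change 1.01), and 1 lower, MTR, the methionine synthase (-1.04). Both lay short of the fold threshold in the other Mig libraries, NNMT at 0.80 and 0.82 and MTR at -0.99 and -0.97 with Normo-Migs and Hypo-Migs. MAT2A, an enzyme that makes S-adenosylmethionine, had 12447 reads in PBS and 18845 to 23414 in the Mig libraries (0.62 to 0.69, not called).

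DNMT1 and UHRF1 are S-phase genes, so 16 genes of S phase and proliferation were set beside them. Only 1 was called, E2F1, higher in each Mig library, as were 12.6% of all genes tested. E2F1 had 1169 reads in PBS, and 3465, 3794 and 3749 with Normo-Migs, Hypo-Migs and CD147KO-Migs. In either direction, 27.2% to 28.3% of all genes tested were called against PBS. The list's median log2 fold change was 0.06, -0.02 and 0.02 with Normo-Migs, Hypo-Migs and CD147KO-Migs, and MKI67 and MCM2 had log2 fold changes of 0.11 and -0.94 with Hypo-Migs. Among 11 germline genes usually silenced by promoter methylation, 4 had enough reads to be tested and 1 was called, MAGEA1. It was lower in each Mig library, as were 6.66% of all genes tested. MAGEA1 had 2866 reads in PBS, and 518, 502 and 509 with Normo-Migs, Hypo-Migs and CD147KO-Migs. HORMAD1 had 62, 72, 96 and 61 reads in PBS, Normo-Migs, Hypo-Migs and CD147KO-Migs and was not called. SYCP3 and ASZ1, with at most 12 reads in any library, were not called either. With Hypo-Migs, HORMAD1, SYCP3 and ASZ1 had log2 fold changes of 0.40, 1.06 and -0.98. DAZL, DDX4, TDRD1, TEX101 and MAGEA4 had 0 reads in all 4 libraries.

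**Figure D4:**
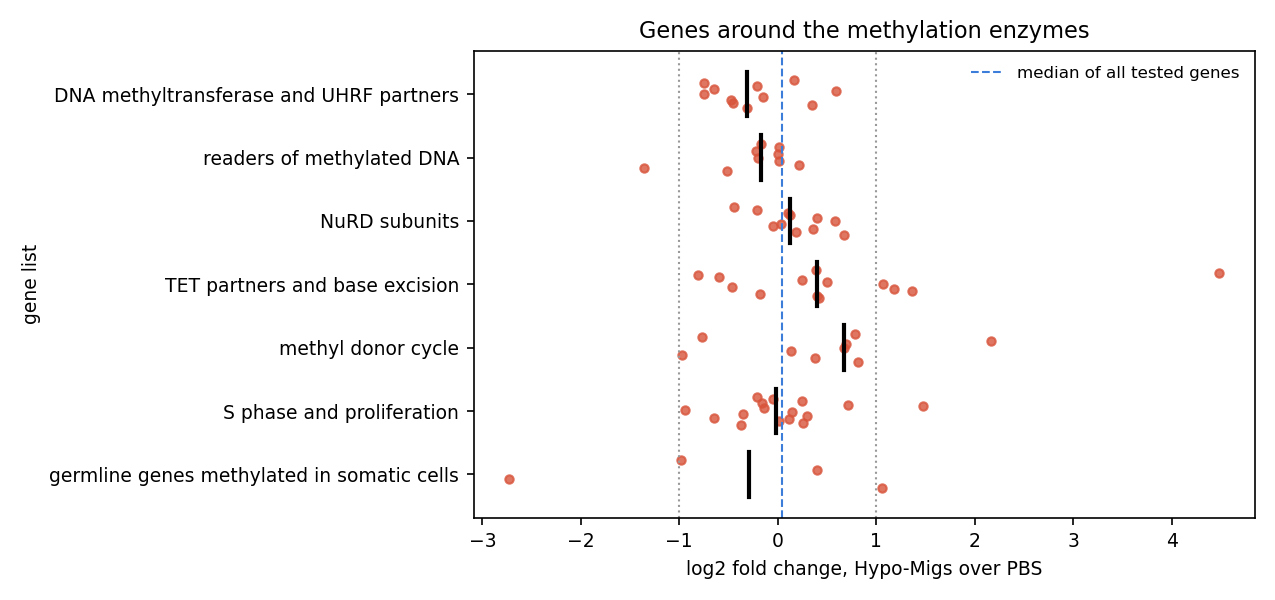
Log2 fold change with Hypo-Migs against PBS of each tested gene (points) in the 7 lists, with the list median (black bar), the median of all tested genes (dashed line, 0.04) and the fold threshold (dotted lines). The point at 4.48 is CXXC4, whose value depends on the prior count because PBS had 0 reads. MAGEA1 lies farthest left at -2.73.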

How the data were processed

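RNA of 4 MHCC-97H cultures, 1 per condition, was sequenced after poly(A) selection. The submitters' processing notes name CASAVA 1.8, fastp, HISAT2 2.0.5, featureCounts 1.5.0-p3 and the build hg38. The authors deposited raw read counts per gene and, separately, FPKM values per gene. Strand and multimapped-read handling are not given in the sources used here. Gene positions are those of the files, and transcripts were read from GENCODE v29.

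Genes that reached 10 reads in any library were kept, and libraries were scaled by TMM (edgeR 4.0.16, R 4.3.3). The exact test for 2 libraries was run as edgeR's binomial test on the reads, because its form with dispersion 0 failed on adjusted counts. A prior count of 2 was added for log2 fold changes, and p-values were adjusted by the Benjamini-Hochberg method over all genes tested. Intervals cover counting error at 95% only. FPKM was used for levels and ratios, and FPKM intervals were scaled from those of the counts.

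The members and lists were chosen with earlier results of these data known. Named were the 9 members, up to 3 called genes per list with the largest change with Hypo-Migs against PBS and a mean of at least 50 reads, list genes called between Mig libraries with that mean, and the 3 nearest profiles of DNMT1 and of UHRF1, by Euclidean distance of centred log2 counts per 1e+06 reads. Of the genes this rule names, 1 is not reported here. Other list genes were named after their values were seen. All 9 members matched a promoter window in the RefSeq table. Alternatives used DESeq2 1.42.0, other filters, scalings and thresholds, and assumed replicate spreads. Figures were drawn with matplotlib 3.10.9.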

Additional observations from a re-analysis of the deposited data

How the results depend on the processing

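DNMT3B and TET1 kept their direction and their calls against PBS in all 3 Mig libraries with DESeq2's size factors, total reads, a filter of 1 read, a prior count of 0.25, fold change alone, log2(FPKM + 0.1), protein-coding genes alone, and an assumed coefficient of variation of 0.1 or 0.4. In each of these 3 comparisons, and in all 3 together, the count of called members fell from 2 to 1 (DNMT3B) when 10 reads were required in every library, which removes TET1, and with log2(FPKM + 1), where TET1 reached 0.32 to 0.42. It fell to 0 when DESeq2 took the 4 libraries as replicates of each other: the adjusted p was 0.544 to 0.565 for both genes, 2 members had an unadjusted p under 0.05 in each comparison, and 0 genes of 19895 were called, with 1246 to 1296 at an unadjusted p under 0.05. That alternative counts the difference of PBS from the Mig libraries as replicate spread by its construction. With the adjusted p alone the counts were 8, 6 and 8 against PBS with Normo-Migs, Hypo-Migs and CD147KO-Migs, 6 in all 3, and 3, 3 and 1 between Mig libraries. No alternative with the fold threshold called a member between Mig libraries.

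Of 675 recomputed member fold changes, 634 kept their direction and side of the threshold, 9 lost a call, 23 gained one by the adjusted p alone and 9 changed sign, all close to 0. The sign changes were DNMT3B between Hypo-Migs and Normo-Migs with total reads (0.0093), a filter of 1 read (9e-04) or 10 reads in every library (6e-04), TET1 between Normo-Migs and CD147KO-Migs with total reads (-0.0152) or protein-coding genes (-0.0012), MBD2 between Hypo-Migs and PBS with a filter of 1 read (0.0088) or 10 reads (0.0107), DNMT1 between Hypo-Migs and CD147KO-Migs with a filter of 1 read (0.0033), and TET2 between CD147KO-Migs and PBS with 10 reads (0.0067). Summing UHRF1 with its pseudogene, and scaling the 3 Mig libraries without PBS, were chosen after seeing the data and changed no call or sign. No paired analysis was possible because each condition has 1 library. No library can be left out of a comparison of 2, and the spread between cultures was not measured.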
